A study of Mus musculus with 2 samples.

Results

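The genes described here make cholesterol or control that synthesis through SREBP2, the transcription factor that switches on sterol synthesis when membranes hold little cholesterol. They were chosen as probe sets of the array whose platform annotation gives exactly 1 gene symbol, with that symbol on a list of 28 genes. This found 27 of the 28 genes, read by 59 of 45101 probe sets, out of 18194 genes in all. Acat2, an acetoacetyl-CoA thiolase, was the gene on the list that is not analysed here. The study fed ICR mice, an outbred stock, from the age of 9 weeks for 4 weeks on the basal diet CRF-1, alone or with 500 ppm diosgenin. Diosgenin is a steroidal sapogenin of plants. Both groups were 13 weeks old at collection, and 1 Affymetrix array per diet carried liver RNA pooled from 3 mice. Neither the sex nor the hour of collection is stated in the labels used here. With 1 array per diet no spread between mice can be had, so no test was made, and higher and lower describe the diosgenin array against the control array.

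Cholesterol is built from acetyl-CoA through mevalonate to isoprene units, which are joined to squalene, closed to the sterol lanosterol and then trimmed to cholesterol. SREBP2, the product of Srebf2, is held in the endoplasmic reticulum by its escort Scap and the Insig proteins while sterols are plentiful. When sterols run low it moves to the Golgi, where the proteases encoded by Mbtps1 and Mbtps2 release its active part. The liver is a main site of this synthesis, and it also turns cholesterol into bile acids and lipoproteins.

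Both arrays carried liver RNA by their markers and had equal global scaling, with a 2% trimmed mean of 96.9 each. Of 8 hepatocyte markers, 7 were above the signal filter, with control signals of 2247 to 12546 and diosgenin signals of 2311 to 11986. The filter kept a gene where the mean of both signals of its brightest probe set reached 28.4. That left 9732 genes, and all 27 members found were among them. The control probe sets of Gapdh gave 3' over 5' signal ratios of 0.822 and 0.799 on the control and diosgenin arrays, and those of Actb gave 1.86 and 2.03.

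Most members were slightly higher on the diosgenin array, and none was 1.5-fold apart. By the brightest probe set of each gene, 19 of 27 members were higher and 8 lower, where 49.0% of the 9732 genes were higher. The 8 include Mbtps1, whose signals were equal to 3 digits. The median log2 ratio of the members was 0.14, and that of all genes was -0.01. At least 1.2-fold higher were 4 of 27 members, a share near the 14.5% of all genes. At least 1.2-fold lower was 1 member, Insig2, against 15.3% of all genes. At least 1.5-fold apart in either direction were 0 members, against 6.44% of all genes. These shares of all genes depend on signal, since ratios of dim genes spread more widely and 17 of the 27 members were among the 2433 brightest genes. Of these 17, 12 were higher, 4 of them at least 1.2-fold, and 1 was at least 1.2-fold lower. Among the 2433 brightest genes 49.5% were higher, 7.69% at least 1.2-fold higher, 7.93% at least 1.2-fold lower and 2.26% at least 1.5-fold apart. Whether any of these shifts exceeds the spread between mice cannot be told from 1 pool per diet. In pooled bulk tissue, fewer cells of a type and less RNA per cell cannot be told apart.

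**Figure D1:**
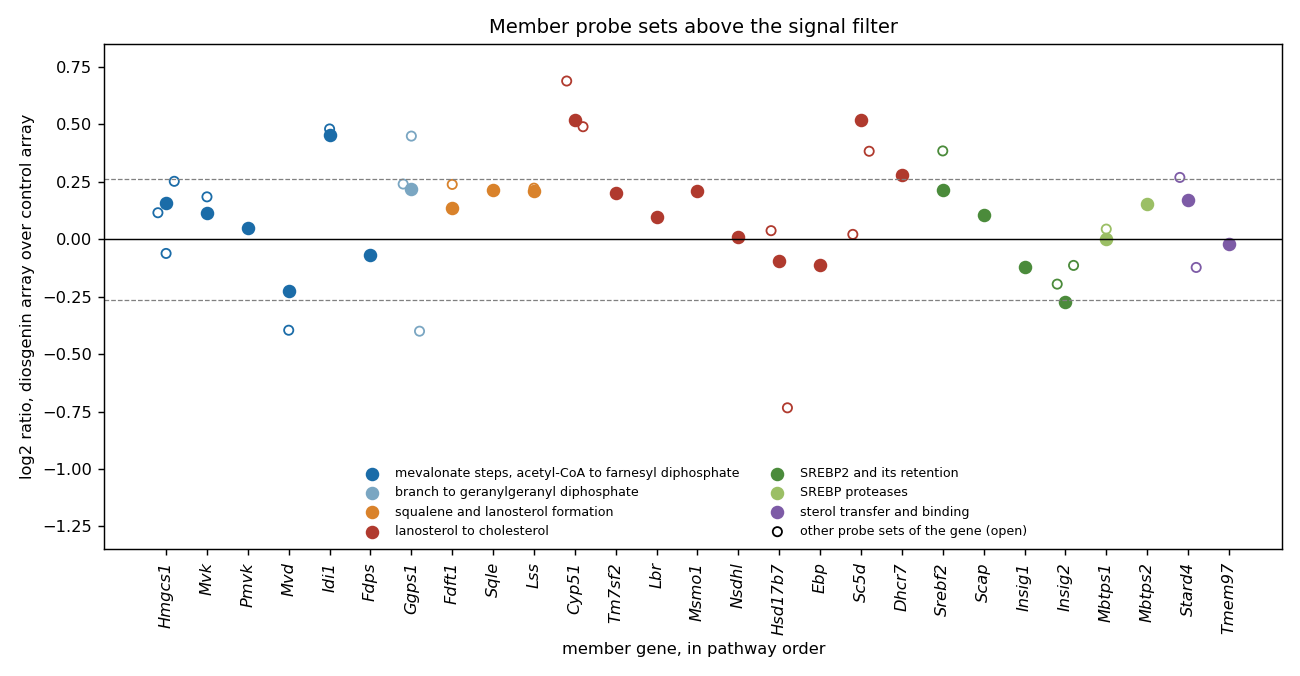
Log2 ratio of diosgenin over control (vertical axis) for the 50 member probe sets above the signal filter, by gene in pathway order. Filled points are the brightest probe set of a gene, open points its other probe sets, and dashed lines mark 1.2-fold. Cyp51, Sc5d and Idi1 have the highest filled points, at 0.52, 0.52 and 0.45, and Insig2 the lowest, at -0.27.

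The same shift was seen across probe sets. Of the 59 member probe sets, 50 had a mean signal above the filter, and 35 of these were higher and 15 lower, where 49.4% of all 16259 such probe sets with 1 symbol were higher. Their median log2 ratio was 0.15, and that of all such probe sets was 0.00. At least 1.2-fold higher were 11 of the 50, against 15.6% of all, and at least 1.2-fold lower were 4, against 16.6%. The 2 member probe sets at least 1.5-fold apart, where 7.25% of all probe sets were, belonged to Cyp51, higher, and Hsd17b7, lower. The 9 member probe sets under the filter had mean signals of 0.418 to 21.4 and are not read further. Probe sets of 1 gene share the pools and the gene, so they are not replicates of a diet.

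Where a member was read several times, its probe sets gave one sign in 9 of 14 genes. They were all higher for 7 of the 14, namely Mvk, Idi1, Fdft1, Lss, Cyp51, Sc5d and Srebf2. They were all lower for Mvd and Insig2. Signs were mixed for Hmgcs1, Ggps1, Hsd17b7, Mbtps1 and Stard4. Over all 4079 genes with several probe sets above the filter, 51.4% had one sign, with all probe sets higher in 25.3% and all lower in 26.1%. The standard deviation between probe sets of a gene was 0.28 on the log2 scale over all these genes and 0.22 over the 14 members. Single ratios smaller than this are within the spread between probe sets of a gene, and most members are in that range.

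**Figure D2:**
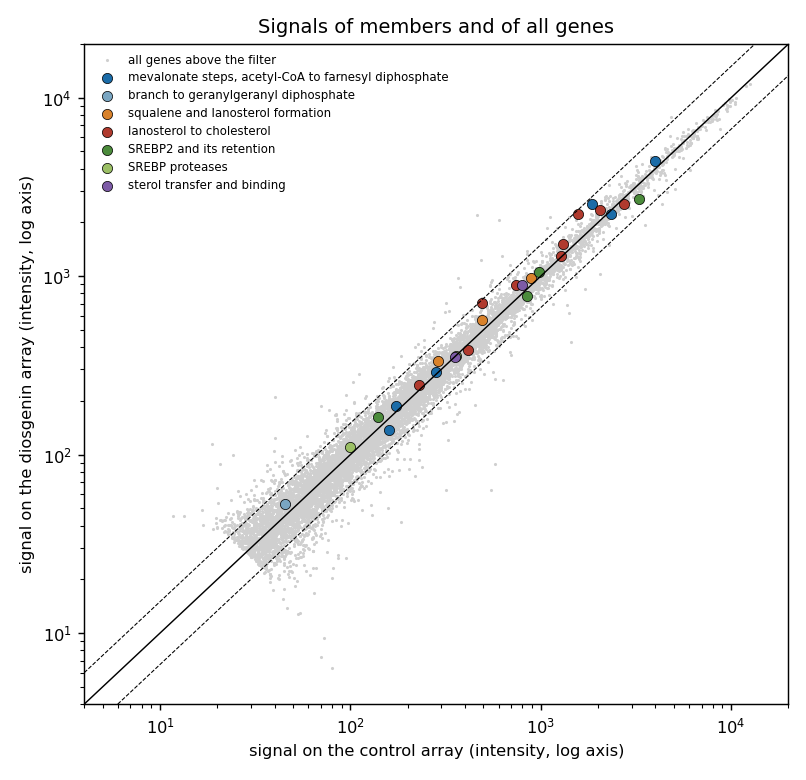
Signals of the 27 members (coloured by step) and of all 9732 genes above the filter (grey) on the control array (horizontal) and the diosgenin array (vertical), both as intensities on log axes. The solid line marks equal signals and the dashed lines 1.5-fold. All members lie between the dashed lines.

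The members with the highest ratios were Sc5d, Cyp51 and Idi1, which act at separate places in the pathway. Cyp51, the lanosterol demethylase that starts the trimming of lanosterol, was read by 3 probe sets. The brightest gave signals of 491 for control and 704 for diosgenin, 1.43-fold higher. The next gave 112 and 180, 1.61-fold higher, and the last 36.7 and 51.6, 1.40-fold higher. All 3 were thus higher by a similar factor over a wide range of signal. Sc5d, a sterol desaturase near the end of the pathway, had signals of 1565 and 2245 by its brightest probe set, 1.43-fold higher. The other two gave 789 and 801, 1.01-fold higher, and 100.4 and 130.9, 1.30-fold higher. The size of the Sc5d difference therefore depends on the probe set. Idi1, the isomerase that interconverts both isoprene units, had signals of 1857 and 2540, 1.37-fold higher, and by its other probe set 903 and 1260, 1.39-fold higher.

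These 3 genes ranked 388th, 390th and 540th from the highest of all 9732 genes, for Sc5d, Cyp51 and Idi1 in this order. By their brightest probe sets they were also the 3 members outside the central 95% of genes of like signal. Among the 2433 brightest genes, which held 17 of the 27 members, that range ran from -0.47 to 0.44 on the log2 scale. The 3 genes are 11.1% of the members, where 5% of all genes are outside by construction. The count was 2 under 4 of the alternatives: Sc5d was inside by the median of its probe sets, at 0.38, and Idi1 was inside with no filter, with unique probe sets alone and after quantile normalization. Cyp51 was outside under all 8 alternatives tried. Its ratio was 0.52 under each of them, and they reuse the same arrays, so this count is no further evidence for Cyp51.

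Promoter stretches of these genes are shown because SREBP2 acts at short sites near the start of its target genes, together with the factors NF-Y and Sp1. Each line gives the 150 bases before the annotated RefSeq start, 5' to 3' on the gene's own strand, in build GRCm38.p6. Capitals mark exact matches on either strand of 4 motifs: TCACNCCAC, a sterol response element of the classic kind, ATTGG, the CCAAT box bound by NF-Y, GGGCGG, the GC box bound by Sp1, and CACGTG, an E-box. The stretches lie at chr5:4104698-4104847 on the minus strand for Cyp51, chr9:42264301-42264450 on the minus strand for Sc5d and chr13:8885456-8885605 on the plus strand for Idi1. That of Hmgcs1, on the plus strand at chr13:119690201-119690350, is added as the one member window with the TCACNCCAC match. That of Insig2, on the minus strand at chr1:121332590-121332739, is added as the member with the lowest ratio and is the most upstream of its 3 annotated windows.
Cyp51: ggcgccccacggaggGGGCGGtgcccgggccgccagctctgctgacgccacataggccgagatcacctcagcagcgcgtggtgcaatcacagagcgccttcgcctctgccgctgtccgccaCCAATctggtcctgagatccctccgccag
Sc5d: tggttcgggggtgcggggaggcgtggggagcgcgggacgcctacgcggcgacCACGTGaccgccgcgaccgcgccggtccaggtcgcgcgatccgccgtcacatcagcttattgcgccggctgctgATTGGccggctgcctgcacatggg
Idi1: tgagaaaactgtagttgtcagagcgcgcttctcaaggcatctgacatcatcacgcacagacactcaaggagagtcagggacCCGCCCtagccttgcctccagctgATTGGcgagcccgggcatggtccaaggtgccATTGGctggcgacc
Hmgcs1: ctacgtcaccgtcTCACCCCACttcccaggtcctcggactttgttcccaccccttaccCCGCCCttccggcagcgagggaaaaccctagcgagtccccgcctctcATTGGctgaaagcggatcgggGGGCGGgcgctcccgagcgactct
Insig2: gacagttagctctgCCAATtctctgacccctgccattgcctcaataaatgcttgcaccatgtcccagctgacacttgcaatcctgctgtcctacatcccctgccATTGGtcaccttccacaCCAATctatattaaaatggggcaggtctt

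The match of TCACNCCAC in the Hmgcs1 stretch reads TCACCCCAC and begins 137 bases before the start. Cyp51, Sc5d, Idi1 and Insig2 have no exact match to these letters in their windows, which says only that. A CCAAT box begins 29 bases before the start in Cyp51 and 24 in Sc5d, and in Idi1 CCAAT boxes begin 45 and 14 bases before it. Sc5d also holds the E-box, 98 bases before its start. In the Insig2 stretch 3 CCAAT boxes and no GC box, E-box or TCACNCCAC were found. The other annotated windows of Insig2 each hold a GC box, and which start is used in liver was not tested.

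Promoter windows of 300 bases, from 250 before to 50 after the start, were at hand for 23 of the 27 members, 29 windows in all. The CCAAT box was in 20 of the 29 (69.0%), against 37.4% of the 10231 windows of genes above the signal filter and 37.4% of all 32851 windows. The GC box was in 23 (79.3%), against 62.6% and 35.7%. The E-box was in 6 (20.7%), against 10.2% and 7.15%, and TCACNCCAC in 1 (3.45%), against 1.22% and 1.24%. Members without a CCAAT box were Scap, Mbtps1 and Mbtps2, the escort and both proteases, whereas each of the 16 enzymes with a window held one in at least 1 window. Windows of one gene can share sequence. Matches of different motifs overlapped 0 times in the member windows, and a match describes letters and not a bound site.

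**Figure D3:**
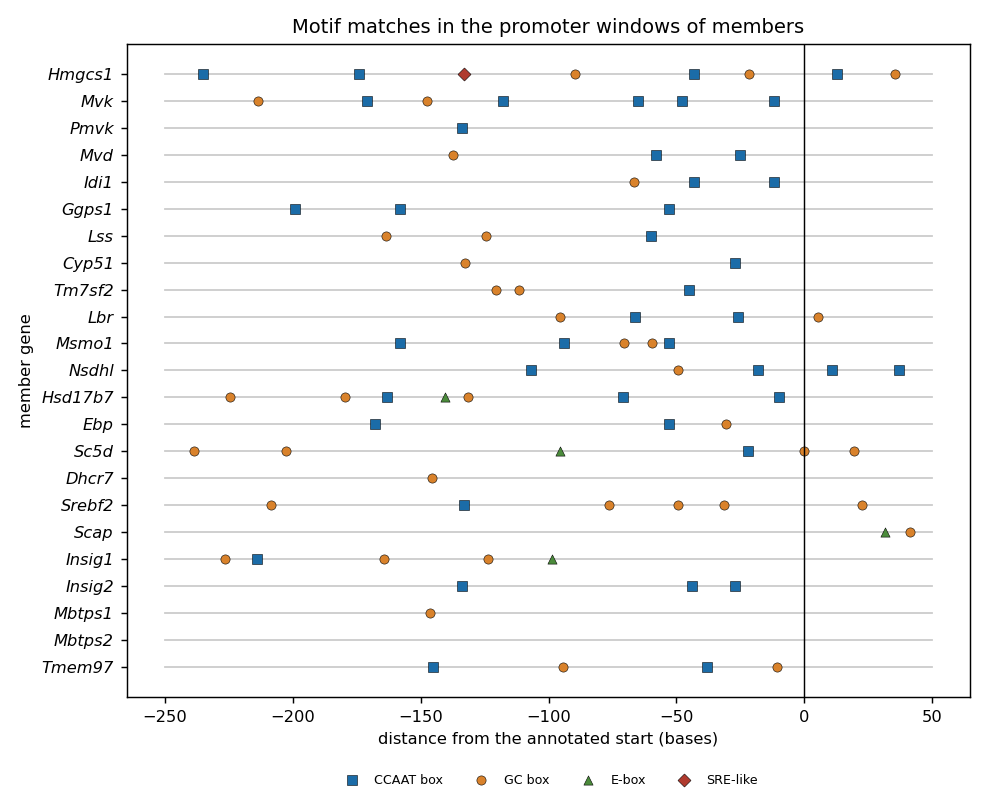
Midpoints of motif matches (symbols) along the promoter window of 23 members, by distance in bases from the annotated start (vertical line), using the most upstream window of each gene. Of 42 CCAAT boxes shown, 24 lie within the last 100 bases before the start, and the SRE-like match (TCACNCCAC) is in Hmgcs1 alone.

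The early enzymes, from acetyl-CoA to farnesyl diphosphate, went both ways. Among 6 genes, 4 had higher signals, 2 had lower ones, and the median was 0.08 on the log2 scale. Hmgcs1, which condenses acetyl units to HMG-CoA, had 4 probe sets above the filter. They gave signals of 3971 and 4433, 3574 and 3871, 3745 and 3588, and 1480 and 1762 on the control and diosgenin arrays, with log2 ratios of 0.16, 0.12, -0.06 and 0.25. The brightest of these can bind several transcripts. Probe sets called unique here are those without the endings _x_at, _s_at and _a_at. The 2 such probe sets of Hmgcs1 above the filter differ in sign. Mvk, the kinase that first phosphorylates mevalonate, had signals of 174 and 188, 1.08-fold higher, and 80.6 and 91.6 by its other probe set. Pmvk, the next kinase, had signals of 282 and 292, 1.03-fold higher. Both kinases were within the spread between probe sets.

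Mvd, which decarboxylates mevalonate diphosphate to the first isoprene unit, was the lowest of the enzymes. Its signals were 160.3 and 137.0, 1.17-fold lower, and by its second probe set 144.6 and 109.9, 1.32-fold lower. Its neighbour in the pathway, Idi1, was among the 3 highest enzymes. Fdps, which joins isoprene units to farnesyl diphosphate, had signals of 2350 and 2239, 1.05-fold lower. Ggps1, which lengthens farnesyl to geranylgeranyl diphosphate for protein prenylation and leaves the sterol route, was read at dim signals. Its 4 probe sets had signals of 45.3 and 52.8, 41.1 and 48.5, 32.4 and 44.3, and 34.7 and 26.3. The first 3 were higher and the last lower, at log2 ratios of 0.22, 0.24, 0.45 and -0.40, and genes of this signal had a central 95% of -0.95 to 0.83.

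All 3 enzymes that make squalene and close it to lanosterol were higher by a like amount. Squalene synthase Fdft1, the first enzyme committed to sterols, had signals of 885 and 974, 1.10-fold higher, and 804 and 949, 1.18-fold higher, by its unique probe set. Squalene epoxidase Sqle, a step that limits the flow through the pathway, had signals of 490.5 and 569.5, 1.16-fold higher. The cyclase Lss had signals of 290.0 and 335.7, 1.16-fold higher, and 98.1 and 114.4 by its other probe set, 1.17-fold higher. The median log2 ratio of the 3 genes was 0.21.

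Between lanosterol and cholesterol, signals were higher for 7 genes of 9 and lower for 2, and the median was 0.20 on the log2 scale. After Cyp51, the sterol reductases Tm7sf2 and Lbr catalyse the same reduction, and Lbr is also a protein of the inner nuclear membrane that holds chromatin. Tm7sf2 had signals of 1311 and 1508, 1.15-fold higher, and Lbr 229.7 and 245.6, 1.07-fold higher. Msmo1, the oxidase that begins removal of the methyl pair of the sterol, had signals of 2039 and 2359, 1.16-fold higher. Nsdhl, the dehydrogenase of the same complex, had signals of 1282 and 1291 and was nearly equal. Hsd17b7, the ketone reductase that completes this removal, was read unevenly.

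The 3 Hsd17b7 probe sets above the filter gave signals of 413 and 387, 256 and 262, and 165 and 99.0. Their log2 ratios were -0.09, 0.04 and -0.73, so that only the dimmest of the 3 was far from zero, at 1.66-fold lower. Ebp, the sterol isomerase, had signals of 2747 and 2538, 1.08-fold lower. Dhcr7, the reductase of the final step in one route, had signals of 739 and 896, 1.21-fold higher, by its 1 probe set. The enzymes from squalene on were thus higher for 10 of 12 genes with a median of 0.21, and those before squalene for 5 of 7 with a median of 0.11. This difference was not tested, and the spread between probe sets of a gene describes single ratios and not such medians.

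Genes that control SREBP2 went both ways, with 3 of 6 higher, 2 lower and Mbtps1 equal to 3 digits. Whether they differ from the enzymes was not tested. Srebf2 itself had signals of 139.0 and 161.5, 1.16-fold higher, and 104.3 and 136.1 by its other probe set, 1.31-fold higher. Its escort Scap had signals of 976 and 1049, 1.07-fold higher. Both Insig genes, which encode the proteins that keep the escort in the endoplasmic reticulum, were lower. Insig1, which is also a target of SREBP2, had signals of 844 and 775, 1.09-fold lower, by its 1 probe set.

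Insig2, the form with a liver-enriched transcript that insulin lowers, had 3 bright probe sets, all lower on the diosgenin array. Their signals were 3266 and 2701, 2940 and 2568, and 2126 and 1965, which is 1.21-fold, 1.14-fold and 1.08-fold lower. It was the lowest of all members by its brightest probe set, at a log2 ratio of -0.27, inside the central 95% of bright genes. The protease gene Mbtps1 had equal signals of 359 and 359, and 57.5 and 59.2 by its other probe set above the filter. Mbtps2, the second protease, had signals of 99.1 and 110.2, 1.11-fold higher. Beside the control genes, Stard4, a cytosolic carrier of sterols, had signals of 799 and 898, 548 and 660, and 444 and 408, with log2 ratios of 0.17, 0.27 and -0.12. Tmem97, a sterol-binding membrane protein, had signals of 356.0 and 350.5, 1.02-fold lower.

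Other genes that use isoprenoids or handle sterols were mostly not higher. Of 36 genes on 4 further lists, 29 were above the filter, 11 of them higher and 18 lower, where 49.0% of all genes were higher. The median of these 29 on the log2 scale was -0.05. That median was -0.0097 by the median of all probe sets and -0.015 from unique probe sets, where all genes gave -0.0042 and 0.0005. Past 1.2-fold, 1 of these 29 was higher and 5 were lower, against the 14.5% and 15.3% of all genes. Genes that draw isoprenoids away from sterols, for prenyl groups, dolichol and coenzyme Q, had 3 of 10 higher and 7 lower, with a median of -0.18. Dhdds, a subunit of the enzyme that makes the dolichol chain, had signals of 191.7 and 135.0, 1.42-fold lower, but its other 2 probe sets gave 1.08-fold and 1.03-fold higher. Its partner subunit Nus1 had signals of 520 and 436, 1.19-fold lower, and was lower by 4 of its 5 probe sets above the filter, counting this one. Pdss2, for the side chain of coenzyme Q, had signals of 129.6 and 104.7, 1.24-fold lower, and Icmt, which methylates prenylated proteins, 108.8 and 88.1, 1.23-fold lower.

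**Figure D4:**
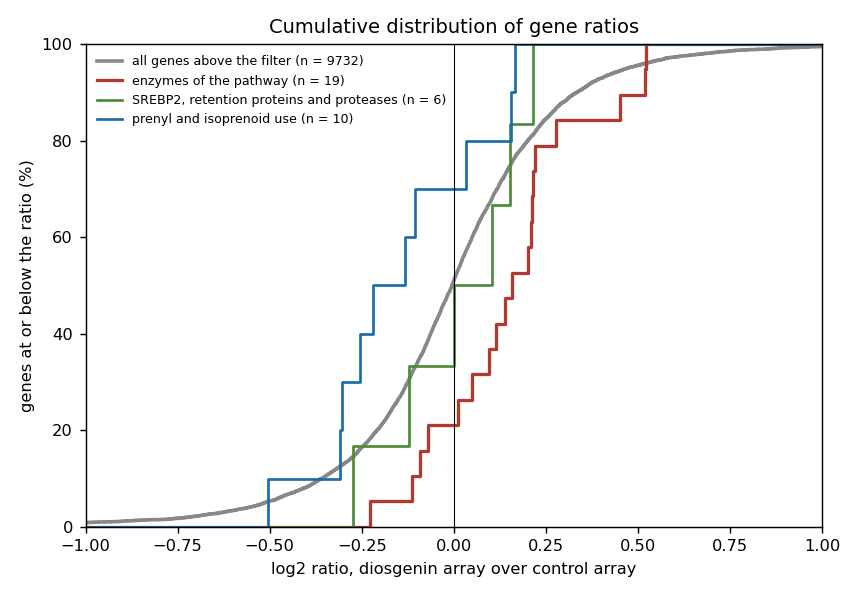
Share of genes (vertical axis, percent) at or below each log2 ratio of diosgenin over control (horizontal axis) for all 9732 genes, the 19 enzymes, the 6 genes of SREBP2 control and the 10 genes of isoprenoid use. The line of the enzymes lies to the right of that of all genes near zero, with a median of 0.16, and that of isoprenoid use to the left, with a median of -0.18.

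On the list of sterol esterification and movement, 2 of the 6 genes read were higher. These were Npc1 and Npc2, which export cholesterol from lysosomes, at 1.07-fold and 1.10-fold. Soat1 and Soat2, also listed, had no probe set with 1 symbol, so sterol esterification itself was not read. The oxysterol-binding protein gene Osbp had signals of 521 and 430, 1.21-fold lower, and Stard5 443 and 400, 1.11-fold lower, while its other 2 probe sets gave log2 ratios of 0.03 and 0.24. Genes of sterol-dependent degradation in the endoplasmic reticulum had 4 of 8 higher and a median of 0.01. The ubiquitin ligase Syvn1, which serves degradation of misfolded proteins in general, had the largest difference, with signals of 1375 and 689, 2.00-fold lower, and 777 and 456 by its other probe set. On the same list Vcp, Erlin2 and Rnf145 had log2 ratios of -0.15, 0.14 and 0.11. Among accessory genes 2 of 5 were higher. Erg28, the scaffold of the demethylation complex that holds Msmo1 and Nsdhl, had signals of 617 and 796, 1.29-fold higher, read by a probe set shared among transcripts. Cyb5r3 and Cyb5b, of the electron supply of the sterol enzymes, and Acat1 had log2 ratios of -0.09, -0.07 and 0.02.

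Values that moved beside the members are as follows. Of 13 clock genes, 11 were above the filter, of which 6 were higher and 2 lower past 1.2-fold, against 14.5% and 15.3% of all genes. The clock output factor Dbp, the gene of this list with the largest difference, had signals of 39.99 and 210.7. Cholesterol synthesis follows a daily rhythm in liver. The counts of cell type markers that follow stand beside 49.0% of all genes higher. Of 6 endothelial markers 5 were lower, with summed signals of 1428 for control and 1047 for diosgenin. Clec4g gave 745 and 464 of these sums, and the median log2 ratio of the 6 was -0.25. All 5 stellate cell markers above the filter were higher, with sums of 1699 and 2147. Col1a1, the stellate marker under the filter, was lower, with signals of 31.3 and 17.2, and 16.8 and 11.8 by its other probe set. Macrophage markers were higher for 5 of 7, with sums of 2017 and 2205. Of 7 hepatocyte markers 3 were higher, with sums of 53412 and 51168. Of the other markers only Sox9, Cd8a and Cela1 were above the filter, and Krt7, Cd3g, Adipoq, Lep, Cpa1 and Ctrb1 were under the signal floor of 10.7 by all their probe sets on both arrays. The part of the daily rhythm and of the cell makeup in the member values was not tested, and cage and diet cannot be told apart if each diet was 1 cage of 3 mice.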

How the data were processed

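Liver RNA of 3 mice per diet was pooled, and 5 µg of it was labelled with biotin for 1 Affymetrix array per diet, per the labels. The deposited values are intensities on a linear scale, 1 for each probe set. They were made with GCOS, per the submitters' processing notes. Both columns have the same 2% trimmed mean, which shows global scaling. Its version, the summary algorithm and the scaling target were not stated in the sources used here.

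The platform annotation named the probe sets, of which 34958 had 1 symbol, 932 several and 9211 none. All 27 member genes matched RefSeq by gene ID. Signals under 10.7, the 40th percentile of all signals, were set to that floor before log2. The probe set of highest mean signal stood for a gene, which was kept if this mean was at least 28.4, the 60th percentile over probe sets. No test, error or interval was computed, and the number of arrays limits the precision. Folds of 1.2 and 1.5 were counted beside the same counts over all genes. Every member is named, and up to 4 genes per further list by absolute log2 ratio. Dbp, Clec4g, Col1a1 and the markers under the floor were chosen after their values were seen. Promoter windows are RefSeq's, build GRCm38.p6. Members and lists were chosen with earlier results of these data known. The steps were tested on simulated data with less noise than the spread between probe sets of a gene. Only medians over sets of genes were checked there, so this says nothing on the precision of single ratios. Python 3.11.15, pandas 2.3.3 and numpy 2.4.6 were used. A planned comparison of protein sequences was not made.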

Additional observations from a re-analysis of the deposited data

How the results depend on the processing

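No paired analysis was possible because each diet had 1 array, and no replicate could be left out. Under 8 alternatives (floor at the 20th or 60th percentile, no filter or one at the 75th percentile, the median of all probe sets, only unique probe sets, quantile normalization, centring) the median log2 ratio of the members lay between 0.11 and 0.15. Of 25 to 27 members, 17 to 20 were higher, 7 to 8 lower, 4 to 5 at least 1.2-fold higher, 1 at least 1.2-fold lower and 0 at least 1.5-fold apart. The 1 member at least 1.2-fold lower was Insig2, except by the median of all probe sets. There it was Mvd, at -0.31, and Insig2 was at -0.20. All 213 gene values under these alternatives moved by less than 0.28, the spread between probe sets of a gene. Most members have ratios smaller than 0.28, so staying under it does not show that their values are stable. Over the settings Hmgcs1 ranged from -0.06 to 0.20, Hsd17b7 from -0.09 to 0.04 and Sc5d from 0.38 to 0.53. The sign changed for Hmgcs1, with -0.06 from its unique probe sets, for Hsd17b7, with 0.04 from its unique probe sets, and for Mbtps1, which was equal on both arrays, with 0.02 as the median of its probe sets and 0.0053 after centring. Pmvk and Msmo1 had no value above the filter from unique probe sets. The floors moved no gene value, since the signals of the brightest probe set of each member were above them. Dim genes such as Ggps1 are measured least firmly.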

Other observations

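Mvd and Idi1 are enzymes of neighbouring steps. Mvd was 1.17-fold lower and Idi1 1.37-fold higher, in each case with 2 of 2 probe sets on the same side. The log2 ratio of Mvd by its brightest probe set, -0.23, is within the spread of 0.28 between probe sets of a gene. That of its other probe set, -0.40, is outside it, but this spread is a standard deviation over genes of all signals. Genes of like signal to Mvd had a central 95% of -0.63 to 0.62, and both ratios of Mvd are inside that range. With 1 pool per diet the contrast describes both arrays and was not tested.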
